A study of Mus musculus with 20 samples.

Results

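The repressive histone mark H3K27me3 was compared between fetal and adult hematopoietic stem cells (HSCs) of B6129SF1 mice through the authors' 2 peak lists for this mark. The members were chosen by list and chromosome: every peak of the fetal liver list and of the adult bone marrow list that lies on chromosomes 1 to 19. They numbered 14579 fetal and 22831 adult peaks, or 37410 of the 219055 peaks in the 8 lists of the series. Fetal HSCs came from embryonic day 14.5 liver and adult HSCs from marrow of mice aged 6 to 8 weeks. Both were sorted, per the labels, as lineage-negative cells that carry Sca1 and cKit and lack CD135, and each immunoprecipitation used 50000 cells. The labels give 2 H3K27me3 libraries per stage, made with the same antibody, while the deposited list of each stage is titled as combined. No genetic change or treatment is named for either group. That sort holds multipotent cells that are not all long-term stem cells, and the labels do not say how many animals were pooled.

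H3K27me3 is written by the Polycomb repressive complex 2, whose catalytic subunit is Ezh2 or Ezh1, and is read by Polycomb repressive complex 1 through Cbx proteins. The mark spreads from CpG-rich promoters of silent developmental regulators into domains that can span many kilobases, with the Hox clusters as the best known case. In stem cells it is also found together with the activating promoter mark H3K4me3, an arrangement called bivalent. In blood formation, Polycomb genes are required for HSC function, and fetal HSCs are known to depend more on Ezh2 than adult ones.

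The files hold positions and scores of peaks, so every value below describes 1 list per stage. No replicate error exists and no test between stages was possible. The 95% Clopper-Pearson intervals cover counting error over peaks, and neighbouring peaks are not independent. Coordinates are in mm9 and 1-based. No annotation or genome of that build was used, so regions carry no gene names and no sequence is shown, and the HSC label was not checked against marker genes. A lower signal in every cell and fewer marked cells cannot be told apart in bulk material. The lists also differ in their narrowest peaks and in their scores. The 1st percentile of width was 496 bp in the fetal and 140 bp in the adult H3K27me3 list, against 550 and 681.55 bp for H3K4me3. The score, the authors' own value with no stated unit, had a median of 176.21 in the fetal and 91.22 in the adult list. It reached 3100, where fetal values pile up, in 544 fetal peaks and in 0 adult peaks, the highest adult score being 3039.51. The part of depth, fragment size or caller settings in any difference below was not tested.

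Fetal H3K27me3 peaks were broad and adult peaks were short and many. The median fetal peak was 1408 bp wide, with quartiles of 843 and 3130.5 bp, and the median adult peak was 280 bp, with quartiles of 194 and 457 bp. Fetal peaks of 5 kb or wider numbered 1779, or 12.2% of the list, against 3 adult peaks. At 10 kb or wider there were 424 fetal and 0 adult peaks. The fetal list covered 37.8 Mb and the adult list 9.31 Mb, a 4.06-fold ratio, although the adult list had 1.57 times as many peaks.

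Adult peaks stood close together. The median distance to the next peak on the chromosome was 331 bp in the adult and 7712.5 bp in the fetal list, and 77.1% of adult gaps were 5 kb or shorter against 45.9% of fetal ones. Joining peaks separated by 5 kb or less, called domains from here on, therefore left 7892 fetal and 5249 adult domains, and the fetal list then had 1.504 times as many. The medians of width became 3094.5 and 1528 bp, and the widest domains became 155219 and 152486 bp. A mean of 4.35 adult peaks and 1.85 fetal peaks went into 1 domain. The fetal peaks filled 85.0% of the length of their domains, and the adult peaks 53.7% of theirs. Few gaps lay near the limit of 5 kb: 273 fetal and 187 adult gaps measured between 4 and 5 kb, and 247 and 142 between 5 and 6 kb.

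**Figure D1:**
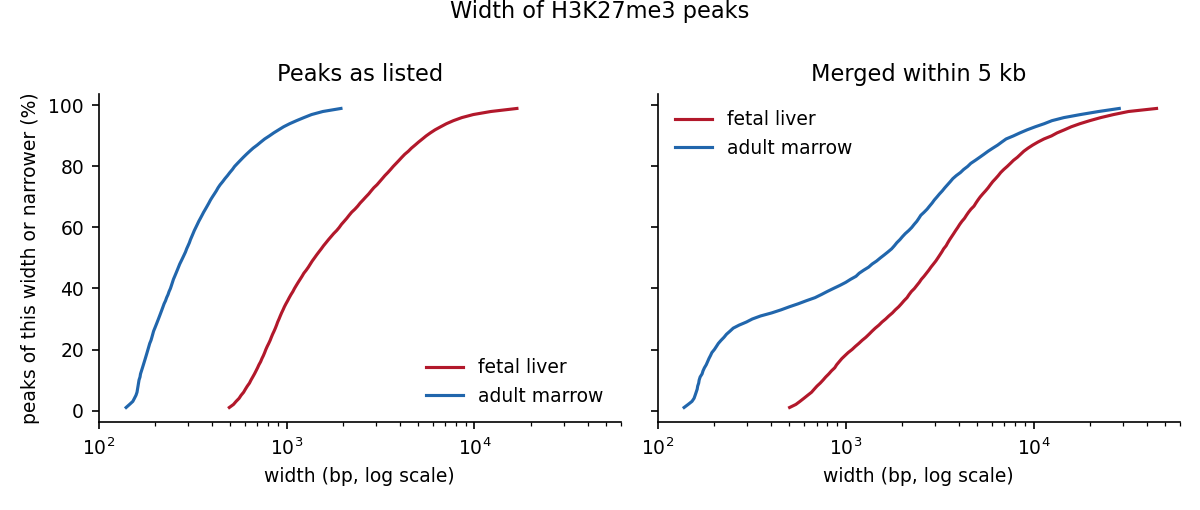
Cumulative share of H3K27me3 peaks (vertical axis, percent) by width (horizontal axis, bp, log scale) in the fetal and adult lists, as listed on the left and merged within 5 kb on the right. The adult curve lies left of the fetal curve in both panels, with medians of 280 and 1408 bp as listed and 1528 and 3094.5 bp after merging.

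Nearly all adult peaks lay inside fetal ones, while most fetal peaks had no adult counterpart. At least 1 bp was shared with an adult peak by 5204 fetal peaks, or 35.7% (34.9 to 36.5), and with a fetal peak by 21100 adult peaks, or 92.4% (92.1 to 92.8). Of the matched adult peaks 20772 lay wholly within fetal peaks, and 21076 touched a single fetal peak. By length, 23.5% of the bases in fetal peaks were also in adult peaks, against 95.3% in the other direction. Between domains the shares were 51.1% (50.01 to 52.2), or 4034 fetal domains, and 84.5% (83.5 to 85.5), or 4435 adult domains. For 2 of those 4034, the shared bases fell in a gap between adult peaks, so 4032 fetal domains held a listed adult peak. Close to the limit of 1 bp, 80 matched fetal peaks shared 100 bp or less, and 60 unmatched ones had an adult peak within 100 bp. Stricter rules moved the shares far more. With 50% of the peak covered they were 4.24% of fetal and 91.8% of adult peaks, and with 500 bp shared 22.3% and 21.6%. The turned order under the rule of 500 bp is set by adult width. The 78th percentile of adult width was 499 bp, and peaks that narrow cannot share 500 bp.

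Unmatched peaks were narrower at the median in both lists, though they reached 10615 bp in the fetal and 3095 bp in the adult list. A wider peak has more room for an overlap of 1 bp. The 9375 fetal peaks without an adult peak had a median width of 977 bp, against 3763.5 bp for matched ones, and still summed to 12.2 Mb. The median distance from an unmatched fetal peak to the nearest adult peak was 14.2 kb. An adult peak lay within 5 kb of 34.1% of them, and none lay within 50 kb of 32.0%.

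Whether a fetal domain held an adult peak followed its width. Of the 2787 fetal domains under 2 kb, 12.7% (11.5 to 14.0) held one, and of the 2622 domains of 2 to 5 kb, 59.1% (57.2 to 61.0). The share was 82.2% (80.2 to 84.1) of 1473 domains of 5 to 10 kb and 88.2% (85.4 to 90.7) of 621 domains of 10 to 20 kb. Among the 389 domains of 20 kb or wider it was 94.6% (91.9 to 96.6), leaving 21 without an adult peak. All of these are to be read against the 51.1% over all domains. A wider interval also has more room for an overlap of 1 bp.

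Matched fetal domains were broken into several adult pieces. Over the 4032 domains with a listed adult peak the median was 3 adult peaks, the quartiles were 2 and 6, and the highest number was 128. A single adult peak was found in 974 domains, and 5 or more in 1400. Adult peaks outnumbered fetal peaks in 2600 domains, equalled them in 901 and were fewer in 531. The median number of adult peaks rose with the width of the domain from 1 under 2 kb, 2 at 2 to 5 kb, 4 at 5 to 10 kb and 7 at 10 to 20 kb to 17 at 20 kb or wider. The density moved less: it was 9.03 adult peaks per 10 kb of matched domain under 2 kb, 5.48 at 10 to 20 kb and 5.71 at 20 kb or wider.

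The pieces themselves changed little in size. Their median width was 221 bp in domains under 2 kb and 312 bp in domains of 20 kb or wider, and the median gap between neighbours in a domain was 163 and 196 bp. Wide fetal domains thus differed from narrow ones in the number of adult pieces more than in their size. After merging adult peaks within 5 kb, 92.7% of matched fetal domains held 1 adult domain. In domains under 5 kb the merge distance fixes this share at 100%, and the 974 domains with a single adult peak had no break. The share was 83.9% at 10 to 20 kb and 46.5% at 20 kb or wider.

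Adult peaks covered about 1 base in 5 of a matched fetal domain. The median covered share was 20.8%, with quartiles of 11.2 and 34.0%. At least 50% was covered in 277 matched domains, or 6.87%, and under 10% in 863, or 21.4%. Among matched domains the median hardly moved with width, from 19.2% under 2 kb through 18.3, 23.5 and 21.0% to 24.2% at 20 kb or wider. Spearman's rho between width and covered share was 0.09 over these 4032 domains. A single adult peak takes up a larger share of a narrow domain than of a wide one. The spread was wide in each class: in domains of 20 kb or wider the 10th percentile was 4.11% and the 90th 53.2%. With adult domains in place of adult peaks the median was 39.3% over all matched domains and 54.6% at 20 kb or wider, where 203 domains were covered over 50% or more. Over all 7892 fetal domains, matched or not, adult peaks covered 20.1% of the total length. That share did rise with width, from 3.72% under 2 kb through 14.1, 20.5 and 21.7% to 26.0% at 20 kb or wider. The 389 widest ones held 31.1% of the fetal domain length and 40.4% of the bases covered by adult peaks.

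**Figure D2:**
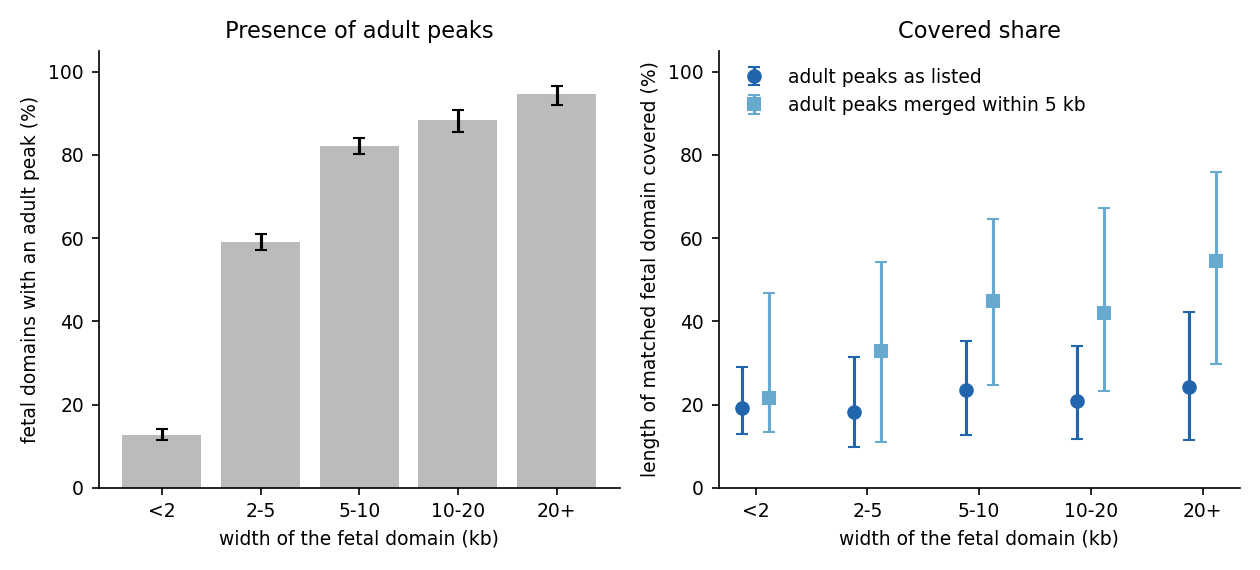
Left, share of fetal domains (percent) that held an adult H3K27me3 peak, by width class of the domain in kb, with 95% Clopper-Pearson intervals. Right, share of the length of matched fetal domains covered by adult peaks as listed (circles) and merged within 5 kb (squares), as medians with quartile bars. Presence rises from 12.7% to 94.6% across the classes while the median share of matched domains covered by listed peaks stays between 18.3% and 24.2%.

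Adult peaks lay toward the middle of fetal domains. In the 2127 matched domains of 5 kb or wider, cut into 10 equal parts, adult peaks covered 36.0% of the bases in the 2 central parts and 9.45% in the 2 outermost parts, a 3.81-fold ratio. Fetal peaks covered 84.5% and 86.2% of the same parts. These fetal values are no comparison for the adult fall, because the fetal list fixes the ends of these domains and a domain always ends in a fetal peak. The ends were alike, with 9.02% in the first and 9.88% in the last part. In single fetal peaks of 5 kb or wider with an adult peak, which have no gaps, the shares were 59.8% in the centre and 13.7% at the ends, over 1697 peaks. From an end of the domain to the first adult peak the median distance was 1846.5 bp. The stretch from the first to the last adult peak reached over a median of 52.3% of the domain, while the median covered share was 23.0%.

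**Figure D3:**
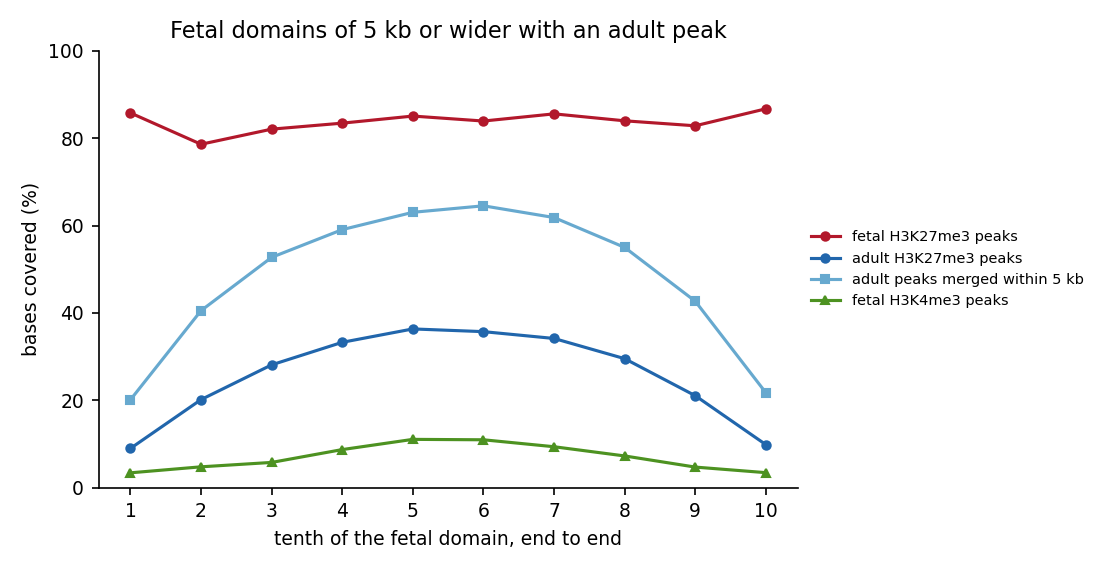
Bases covered (vertical axis, percent) in each of 10 equal parts of the 2127 fetal domains of 5 kb or wider with an adult peak, from end to end (horizontal axis), by fetal peaks, adult peaks, adult peaks merged within 5 kb and fetal H3K4me3 peaks. Adult coverage is 36.4% in the fifth part and 9.02% in the first. Fetal coverage lies between 78.6% and 86.7%, in domains that are built from fetal peaks and end in one.

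Overlap followed the rank of the score within the fetal list. With the list cut into 10 deciles of score, 3.22% (2.38 to 4.26) of fetal peaks in decile 1, the lowest, had an adult peak. The share was 14.9% (13.2 to 16.9) in decile 5, 67.4% (64.9 to 69.8) in decile 8 and 98.7% (97.97 to 99.2) in decile 10. Adult peaks started at 77.9% (76.2 to 79.6) in decile 1 of their own scores and stood above 95% from decile 5 on. The covered share of matched fetal peaks did not follow the same order. Its median was 27.1% in decile 1, where 47 peaks were matched, 13.4% in decile 6 and 41.4% in decile 10. Fetal peaks, matched or not, had a median width of 600 bp in decile 1 and 1618.5 bp in decile 6. The matched ones held means of 1.04 and 1.34 adult peaks. The part of width in the covered share of these deciles was not tested. Score and width are close to the same ordering in these lists, with Spearman's rho of 0.96 in the fetal and 0.93 in the adult list. Within the class of 2 to 5 kb the peaks with lower and with higher scores, split at the median, were matched at 43.6% (41.3 to 45.8) and 85.2% (83.5 to 86.7), with median widths of 2527 and 3777 bp.

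High-ranking fetal domains held high-ranking adult peaks. Over the 4032 matched domains, Spearman's rho between the best fetal and the best adult score was 0.77, and it was 0.71 over the 2127 of 5 kb or wider. Both scores share the width of the domain, which correlated with the best fetal score at 0.74 and with the best adult score at 0.58, so these values are descriptions. In the quartile of matched domains with the lowest best fetal score the median best adult score was 71.18, at percentile 35.9 of the adult list. In the highest quartile it was 513.53, at percentile 94.99. Of the 519 fetal domains with a score of at least 3100, 517 held an adult peak, against 4032 of all 7892 fetal domains. The 519 had a median width of 14197 bp, and their median covered share was 38.0%.

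**Figure D4:**
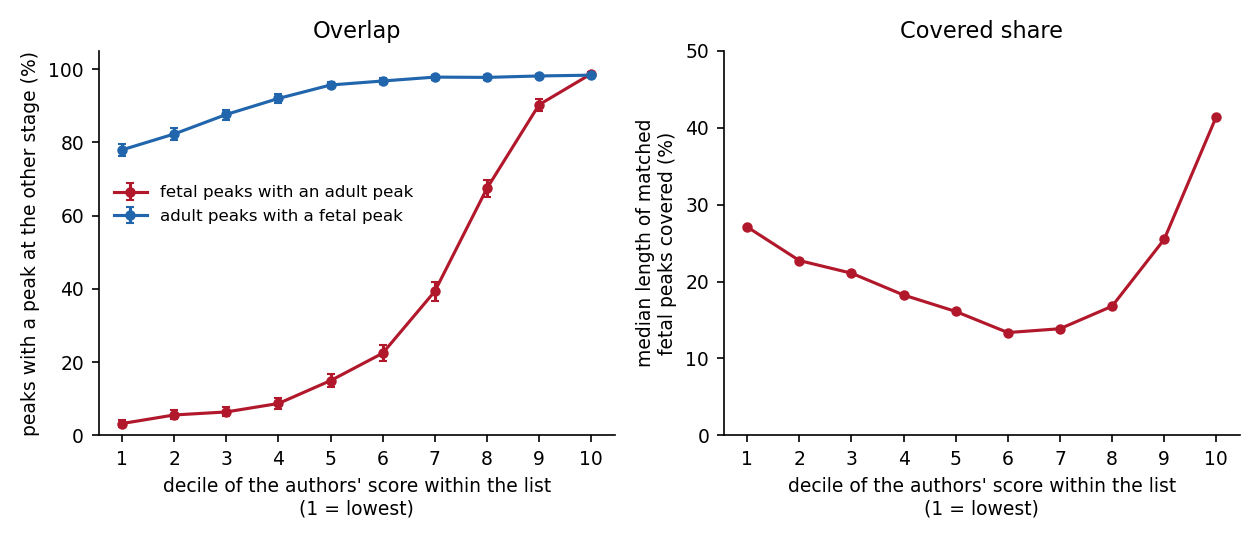
Left, share of fetal and of adult H3K27me3 peaks (percent) with a peak at the other stage, by decile of the authors' score within each list, with 95% Clopper-Pearson intervals. Right, median share of the length of matched fetal peaks covered by adult peaks. Fetal overlap climbs from 3.22% to 98.7%, and the covered share is lowest, at 13.4%, in decile 6.

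The order of score by width turned at the widest fetal peaks. The median score was 706.1 for fetal peaks of 2 to 5 kb, 2309.3 for 5 to 10 kb and 3100 for 10 to 20 kb in both 5 kb steps. It then was 2839.2 for 74 peaks of 20 to 30 kb, 2002.2 for 20 peaks of 30 to 40 kb and 678.99 for 11 peaks of 40 kb or wider, none of which reached 3100. The widest peak of the list, chr2:74484186-74554065 with 69880 bp, had a score of 340.35. The next, chr9:91243185-91306899 with 63715 bp, had 115.16, at percentile 38.3 of the fetal list. Adult peaks covered 78.2% and 52.4% of these 2, with 73 and 79 pieces. Adult scores rose with width in every class, up to a median of 1225.1 for the 207 peaks of 2 kb or wider. A low score in the fetal list therefore marks both the narrowest and some of the widest peaks.

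The 10 widest fetal domains, from 79800 to 155219 bp, all held adult peaks, but the share covered ran from 1.52% to 66.98%. The widest, chr15:7068111-7223329, consisted of 38 fetal peaks and held 66 adult peaks that covered 10.8%. The next, chr19:44712237-44843017, held 95 adult peaks over 35.5% of its 130781 bp, with the widest piece at 2870 bp. On chromosome 2, chr2:74482815-74607323 consisted of 8 fetal peaks and held 128 adult peaks, the most of any domain. They covered 83398 of 124509 bp, and the widest gap between them was 4439 bp, so that merging within 5 kb turned them into 1 adult domain over 97.5% of the fetal one. The other end of the range was chr17:36274869-36376167, with 32 fetal peaks and 6 adult peaks that together covered 1536 of 101299 bp. This domain had 6 adult H3K4me3 peaks over 7116 bp, against 4 fetal ones over 3368 bp.

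Most of the remaining wide domains lay between these. Adult peaks covered 30.9% of chr7:86631501-86747846, 24.6% of chr15:102880638-102960437, 23.1% of chr11:61345894-61449412, 21.6% of chr2:164986751-165072128 and 21.3% of chr4:115560710-115655133. In chr14:25007246-25098642 it was 5.63%. Fetal H3K27ac, a mark of active promoters and enhancers, overlapped 0 of these 10 domains. Adult H3K27ac overlapped 3 of them, on chromosomes 17, 4 and 2, with 957, 845 and 1005 bp. Among the 368 domains of 20 kb or wider with an adult H3K27me3 peak, the shares were 13.6% for fetal and 15.8% for adult H3K27ac. Over matched domains of all widths they were 14.6% and 18.8%. In 10 domains, counts of 0 and 3 are near these shares.

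**Figure D5:**
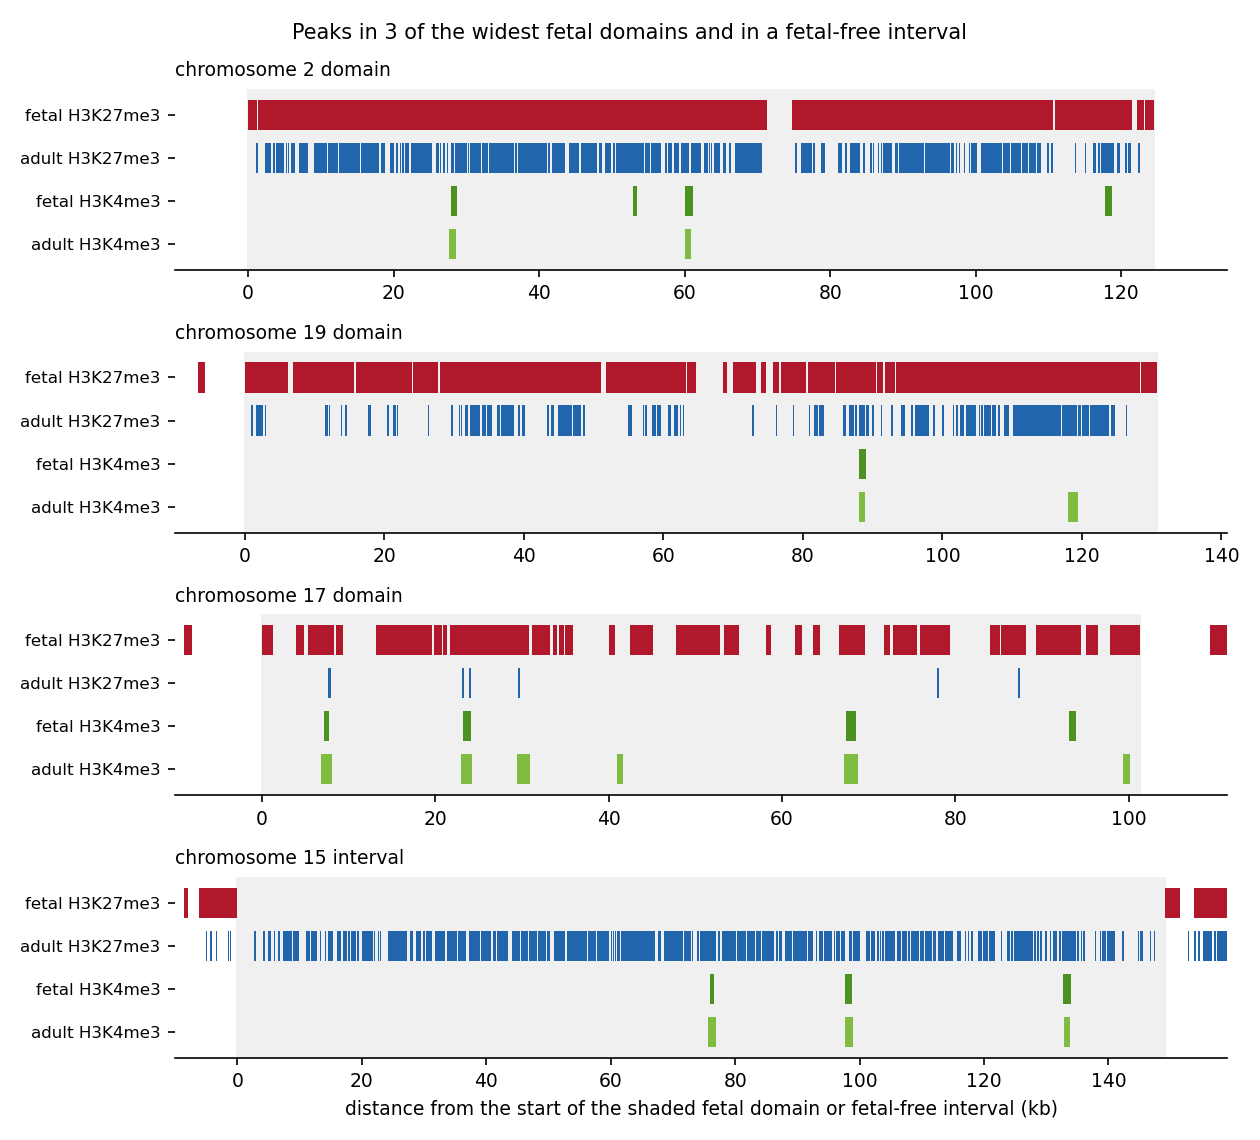
Peaks of H3K27me3 and H3K4me3 at both stages (rows) along 3 of the widest fetal domains and 1 interval without fetal H3K27me3 (shaded), by distance in kb from the start of the shaded stretch. Adult peaks fill 66.98% of the chromosome 2 domain, 35.5% of the chromosome 19 domain and 1.52% of the chromosome 17 domain, and the chromosome 15 interval of 149036 bp holds 188 adult peaks and no fetal one.

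Among matched domains of 10 kb or wider the extremes of the covered share were far apart. The highest were 82.5% of chr19:45295832-45320250, 80.7% of chr9:58041501-58052319 and 78.8% of chr9:55384103-55398129, where 20, 14 and 14 adult peaks lay in 2, 1 and 1 fetal peaks. Each of these domains had H3K4me3 at both stages. Fetal H3K4me3 overlapped 59.1% of all matched domains of 10 to 20 kb and 57.9% of those of 20 kb or wider. For adult H3K4me3 the shares were 55.7% and 56.3%. The lowest were 0.432% of chr11:70510249-70551456, 0.475% of chr1:91179671-91212729 and 0.617% of chr14:12534821-12583433. These had 1, 1 and 2 adult peaks with best scores of 53.61, 53.21 and 60.81, close to the lowest score listed, 50. The first of them also had H3K4me3 at both stages, over 1890 bp in the fetal and 1967 bp in the adult list, and H3K27ac over 1520 and 1754 bp, while the other two had neither mark. The fetal side of the same domains was made of 11, 13 and 15 peaks with best scores of 1301.07, 1763.72 and 910.67.

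Wide or high-scoring fetal regions without any adult peak were few: 94 of the 1010 fetal domains of 10 kb or wider held none, and 2 of the 519 with a score of at least 3100. Over all 7892 fetal domains 3860 held none, and wider domains have more room for an overlap of 1 bp. The widest such domain, chr8:10897467-10943571, spanned 46105 bp with 15 fetal peaks and also carried H3K4me3 and H3K27ac peaks at both stages. Of the fetal peaks without an adult peak, the 3 with the highest scores all stood at 3100. They were chr8:11472700-11483314 with 10615 bp, chr4:114581777-114589427 with 7651 bp and chr18:36440958-36446329 with 5372 bp. All 3 had H3K4me3 at both stages, over 1399, 819 and 1629 bp in the fetal list and 2605, 1308 and 2295 bp in the adult list. H3K27ac covered 769, 0 and 961 bp in the fetal and 1149, 736 and 1910 bp in the adult list. Among fetal domains of 5 to 10 kb without an adult peak, fetal and adult H3K4me3 overlapped 27.5% and 28.6%. For H3K27ac these shares were 23.3% and 21.8%. They are shares of domains, and 3 peaks picked by score do not show a trait of unmatched peaks.

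Adult peaks without a fetal peak were mostly single, narrow and low in score, with 1 large exception. The 1731 such peaks had a median width of 181 bp and a median score of 57.12, against 293 bp and 96.2 for matched adult peaks. Counting neighbours with no fetal peak between them as a run, they formed 1158 runs, of which 930 held a single peak and 16 held 5 or more. The longest run held 188 peaks on chromosome 15, in chr15:102734334-102879038. Its peaks covered 99297 of 144705 bp, or 68.6%, and reached a score of 1087.73. It alone made up 10.9% of the unmatched adult peaks and 24.5% of their length.

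The fetal list had no H3K27me3 peak from chr15:102731602 to 102880637, a stretch of 149036 bp bounded on both sides by fetal peaks. The wide fetal domain chr15:102880638-102960437 begins at its end. Within the stretch, H3K4me3 peaks were 3 at both stages, over 3161 bp in the fetal and 3259 bp in the adult list, and H3K27ac peaks were 0 at both. Fetal H3K4me1 had 20 peaks there. Beside this stand the low scores of the widest fetal peaks given above: the longest listed fetal peak is 69880 bp, and the 11 widest scored between 115.16 and 1584.30. The part of that score pattern in the missing fetal peaks was not tested. From peak lists alone, a stretch without the mark and a stretch where a peak was not called cannot be told apart, so these adult peaks are unmatched in the lists and are not shown to be specific to the adult stage. Without this run the matched share of adult peaks was 93.2% in place of 92.4%.

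Of the 3 widest adult peaks with no fetal peak, 2 belonged to that run, chr15:102805966-102808189 and chr15:102864183-102866353 with 2224 and 2171 bp. The widest, chr6:49162999-49166093, belonged to the run with the next highest number of peaks, 19 in 15783 bp. Fetal H3K4me3 and H3K27ac covered all 3095 bp of it, and the adult peaks of these marks 1623 and 892 bp. That run lay in a stretch of 633130 bp without fetal H3K27me3. Other marks in that stretch were 8 fetal and 5 adult H3K4me3 peaks, over 18249 and 9638 bp, and 6 fetal and 5 adult H3K27ac peaks, over 20700 and 7480 bp. The 2 stretches are unlike in length, 149036 bp on chromosome 15 and 633130 bp on chromosome 6, so their counts of active marks are not directly comparable. H3K27ac had no listed peak at either stage in the chromosome 15 stretch. In the chromosome 6 stretch, of which the run took up 15783 bp, it covered more bases in the fetal than in the adult list.

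On most chromosomes the lists related in a similar way, and chromosome 15 differed in its adult peaks. Matched shares of adult peaks ran from 90.8% on chromosome 6 to 95.03% on chromosome 19, except for 78.6% on chromosome 15, which was 94.1% without the run of 188 peaks. Matched shares of fetal domains ran from 42.4% (37.0 to 47.8) on chromosome 17 to 56.7% (50.9 to 62.4) on chromosome 10. Chromosome 17 was at the end of a continuous range, with chromosome 6 next at 45.8% (40.9 to 50.7). The fetal to adult ratio of covered length ran from 3.45-fold on chromosome 2 to 4.91-fold on chromosome 4 and 5.001-fold on chromosome 17. The median covered share of matched domains lay between 18.0% on chromosome 16 and 23.4% on chromosome 9.

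Fetal domains with an adult H3K27me3 peak more often carried H3K4me3, a promoter mark, and H3K4me1, a mark of enhancers and promoter flanks. In the fetal list H3K4me3 overlapped 2280 of 4032 domains with an adult H3K27me3 peak, or 56.5% (55.0 to 58.1), and 1044 of 3860 without one, or 27.05% (25.7 to 28.5). The gap held within each width class, for instance 59.4% (56.5 to 62.2) against 27.5% (22.2 to 33.3) at 5 to 10 kb, while at 20 kb or wider the group without an adult peak had 21 domains. Adult H3K4me3 gave 51.5% (49.9 to 53.0) and 26.6% (25.2 to 28.0). Fetal H3K4me1 overlapped 68.2% (66.8 to 69.7) of domains with and 31.2% (29.7 to 32.7) of domains without an adult H3K27me3 peak, and adult H3K4me1 11.9% (10.9 to 12.9) and 2.67% (2.18 to 3.23). These H3K4me1 shares are pooled over widths, and the gaps were smaller in some classes. Adult H3K4me1 was at 6.13% (4.99 to 7.44) against 4.66% (3.48 to 6.10) at 2 to 5 kb. Fetal H3K4me1 was at 79.0% (75.4 to 82.4) against 67.1% (55.1 to 77.7) at 10 to 20 kb. With 500 bp shared, adult H3K4me1 overlapped 34 of 4032 and 7 of 3860 domains, and at 10 to 20 kb the order turned (2.37% against 4.11%). For H3K27ac, the shares were 14.6% (13.5 to 15.7) and 14.3% (13.2 to 15.4) in the fetal list and 18.8% (17.6 to 20.02) and 17.6% (16.5 to 18.9) in the adult list. At 5 to 10 kb, fetal H3K27ac was at 13.4% (11.5 to 15.4) of domains with and 23.3% (18.3 to 28.9) of domains without an adult H3K27me3 peak. In domains under 2 kb the order was the opposite, 22.0% (17.8 to 26.6) against 11.8% (10.5 to 13.2).

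Within matched domains, the adult peaks favoured the stretches that carried methylated H3K4, and to a lesser degree those with H3K27ac. Adult H3K27me3 covered 46.4% of the bases inside fetal H3K4me3 peaks and 23.0% of the bases outside them. Inside fetal H3K4me1 peaks it covered 59.5%, against 21.1% outside. Inside fetal H3K27ac peaks it covered 33.1%, against 25.01%, and inside adult H3K27ac peaks 35.9%, against 24.9%. In domains of 10 kb or wider these shares were 54.7 against 24.7% for fetal H3K4me3 and 66.8 against 22.4% for fetal H3K4me1. For H3K27ac they were 28.7 against 26.1% with the fetal and 32.9 against 26.0% with the adult list. The stretches with methylated H3K4 hold a minor part of the adult mark, since 17.2% of the adult H3K27me3 bases in matched domains lay inside fetal H3K4me3 peaks and 25.3% inside fetal H3K4me1 peaks. Fetal H3K4me3 was itself denser in the middle of domains of 5 kb or wider, at 11.04% of the bases in the central and 3.45% in the outermost parts. The part of this central position in the difference was not tested.

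Under the same procedure, adult peaks outnumbered fetal peaks in matched fetal domains for H3K27me3 and not for the other marks. Matched fetal domains held 2.33 adult peaks for each fetal peak for H3K27me3, against 0.975 for H3K4me3, 0.922 for H3K27ac and 0.341 for H3K4me1. The lists also differ in size, with 22831 adult and 14579 fetal peaks for H3K27me3 and 12502 and 92339 for H3K4me1. For H3K4me3 they hold 16156 and 16567 peaks, and for H3K27ac 17834 and 23368. The part of list size in these ratios was not tested, so breaking into pieces is not shown to be particular to H3K27me3. The median covered share of matched domains was 20.8% for H3K27me3, 96.85% for H3K4me3, 79.8% for H3K27ac and 5.38% for H3K4me1. The H3K4me1 lists also differed in width, with medians of 430 and 193 bp, whereas those of H3K4me3 were 1743 and 1815 bp. With 1 list per mark and stage, these differences between marks carry no test.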

How the data were processed

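Per the submitters' processing notes, reads were aligned with Bowtie2 2.2.2 and the build is mm9. Peak names in the deposited lists begin with MACS, which names the caller. Its version, settings and control are not given in the sources used here. The score in the last column was deposited without a unit, and was used by rank within a list. Each list is titled combined and was taken as 1 call over 2 replicates. Depth, replicates and inputs were not analysed here.

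Peaks on chromosomes 1 to 19 were kept. Peaks separated by at most 5 kb were merged within each list, overlap required 1 bp, and covered shares counted bases. Regions named are the 10 widest fetal domains, extremes of covered share at 10 kb or wider, and the widest or top-scored unmatched regions. Runs of unmatched adult peaks, scores by width and fragmentation of the other marks were chosen after values were seen. The members, lists and measures were chosen with earlier results of these data known. Planned gene lists and sequence composition need an mm9 annotation or genome and were not run. Interval code was tested on simulated data, where 0 of 3320 checks failed. Python 3.11.15, numpy 2.4.6, pandas 2.3.3, scipy 1.17.1 and matplotlib 3.10.9 were used.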

Additional observations from a re-analysis of the deposited data

Results flagged for a closer look

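H3K27me3 peaks outside chromosomes 1 to 19 entered no comparison, and each of their counts exceeded the 3 that a count of 0 allows. Chromosome X held 244 fetal peaks with a median width of 1215.5 bp and 133 adult peaks with a median width of 186 bp. Its highest scores were 2911.06 and 161.23. Unplaced or random sequence held 20 fetal and 21 adult peaks, with highest scores of 3223.06 and 1417.78.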

How the results depend on the processing

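No paired analysis was possible because the deposited lists are combined over replicates from the start. Leave-one-out values could not be had either, and the alternative for the gene lists was not run, since it needs mm9 annotation. Movement was judged against the 95% interval for shares, and against a 1.5-fold change for ratios and means. The log2 fetal to adult ratios of number and of length, the mean number of adult peaks per matched domain (3.77 to 5.63, against 5.28), the median covered share (19.2 to 22.3%) and the ratio of central to outer coverage kept their direction and moved by less than that under each alternative run. The ratio of peak number as listed cannot be taken with equal numbers of peaks. Depth is unknown, and its part in the shares of narrow, low-scoring peaks was not tested. Where a share moved, the cause was not tested, except that stricter overlap rules lower it by construction.

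With scores of at least the list median, matched shares were 45.4% of fetal and 96.5% of adult peaks, and 53.5% of fetal and 96.4% of adult domains. With the 14579 top-scored peaks of both lists they were 27.1% and 97.1%, and 41.9% and 96.7%. With 50% of the peak covered they were 4.24% and 91.8%, and 19.1% and 82.8%, and with 500 bp shared 22.3% and 21.6%, and 39.9% and 64.2%. Merging within 1 kb gave 44.3% of fetal and 83.2% of adult domains, and within 10 kb 54.6% and 86.1%. With deciles of width in place of score, decile 10 of fetal peaks was matched at 97.0%. With 500 bp shared, 23.2% of fetal domains without an adult peak held fetal H3K4me3. Without the longest adult run, added after the data were seen, 93.2% of adult peaks were matched. The order of the stages changed for listed peaks with 500 bp shared, where most adult peaks are too narrow to qualify, and under no other of these alternatives.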

Other observations

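Of 100 fetal peaks at the top of the score order, where many are tied at 3100, 100 had an adult peak, with a median of 9.5 adult peaks and a median covered share of 50.4%. An adult peak was found at 35.7% of all fetal peaks and at 98.7% of those in decile 10 of score. Of the 100 adult peaks with the highest scores 99 had a fetal peak, and 68 of them lay on a fetal peak with a score of at least 3100. Of all adult peaks 92.4% had a fetal peak, and of those in decile 10 of score 98.3%, so the count of 99 is near that of the other high-scoring peaks. Fetal peaks with a score of at least 3100 were 3.73% of the fetal list by number, which is not the share of adult peaks that lie on them. That share was not counted, so the 68 stand without a comparison. Matched fetal peaks in decile 10 of score held a mean of 7.92 adult peaks, against 1.04 in decile 1.

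After the chromosome 15 and chromosome 6 runs, the adult run with most peaks was chr10:45189460-45206044, with 11 peaks over 3922 bp and a best score of 217.78. It lay in a fetal-free stretch of 147982 bp with 3 fetal and 2 adult H3K4me3 peaks.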
